A study of Mus musculus with 6 samples.

Results

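The 31 genes described here encode the enzymes that make serine, pass on its carbon through folate, and build the purine and pyrimidine rings of nucleotides. They were taken by name from the gene list of 54446 genes in each deposited file, and each of the 31 names matched 1 gene. They were grouped into 4 branches, with 3 genes of serine synthesis, 8 of the folate and methyl cycles, 13 of purine synthesis and salvage and 7 of pyrimidine synthesis. Some serve both rings. Prps1 and Prps2 were placed with the purine genes, and Nme1 and Nme2, which make purine and pyrimidine triphosphates alike, with the pyrimidine genes. RNA-Seq had been performed on CD8+ T cells, the cytotoxic lymphocytes, purified by negative selection from the spleens of wild type C57BL/6 mice aged 8 weeks. The 6 libraries formed 3 groups of 2, namely unstimulated cells taken fresh, control cells that had received plate-bound antibodies to CD3 and CD28 for 72 h, and SMF-treated cells that had received the same antibodies for the same 72 h on permanent magnets of 0.3 T (SMF, static magnetic field). Nothing in the labels says whether the 2 libraries of a group came from separate mice, so the spread between them may be partly technical.

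A resting T cell needs few nucleotides, whereas an activated T cell copies its genome and its ribosomal RNA and draws on new synthesis. Serine, made from a glycolytic intermediate, gives up a carbon to tetrahydrofolate in the mitochondrion, and the resulting formate returns to the cytosol, where 10-formyl-tetrahydrofolate supplies carbons to the purine ring and methylene-tetrahydrofolate the methyl group of thymidylate. The pyrimidine ring is built separately from glutamine, bicarbonate and aspartate, and shares with the purine pathway the activated ribose PRPP. In lymphocytes, transcription factors of the MYC and ATF4 families are known activators of many of these genes.

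Levels are given as FPKM, which scales the fragments of a transcript by its length and by library size, and the annotated transcripts of a gene were added up. The files hold no read counts, so depth was taken as aligned bases, the sum over transcripts of coverage times length, in which replicate 1 and replicate 2 reached 67.4 and 132 Mb (unstimulated), 64.4 and 172 Mb (control) and 259 and 227 Mb (SMF). Depth was lowest in replicate 1 of the unstimulated and control cells, and a gene listed at 0 FPKM there is not shown to be absent. Differences were tested with limma on log2(FPKM + 1) for the 14991 genes whose mean over the 6 libraries reached 1 FPKM, and are given as log2 fold changes ± SE with Benjamini-Hochberg adjusted p over those 14991 genes. A gene was called higher or lower where it differed 2-fold or more with an unadjusted limma p no larger than 0.05. Of the 31 genes 30 passed the filter. The remaining one, Aldh1l2, a mitochondrial folate dehydrogenase, was listed at 2.23 and 0.104 FPKM in the unstimulated, 0.775 and 0.838 FPKM in the control and 0.734 and 0 FPKM in the SMF libraries.

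The command lines kept in the file headers name dated folders, of June 2017 for replicate 1 of unstimulated and control cells, November 2017 for replicate 2 of both, and October 2018 for both SMF libraries. Neither the labels nor the headers name a sequencing run, and run stands below for a shared folder date. No date was shared between an SMF library and any other, so in SMF against control the effects of field and run cannot be told apart, nor those of stimulation in the field and run in SMF against unstimulated. The SMF libraries also differed in composition, with 69.2% and 68.7% of all FPKM in protein-coding genes, against 49.1% and 50.5% in the control and 49.3% and 49.7% in the unstimulated libraries. The whole distribution was shifted between SMF and control cells, with a median of 0.32 on the log2 scale for the 14991 genes and of 0.57 for protein-coding genes, and the differences of single genes below include that shift.

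Markers of B, myeloid and NK cells were highest in the unstimulated libraries. The summed level of 8 B cell markers was 357 and 321 FPKM there, 48.2 and 46.3 FPKM in the control and 75.9 and 68.3 FPKM in the SMF libraries, and Ighm was the most abundant of them. All 8 were called lower in both stimulated groups, and in SMF against control Ighm was called higher, Cd79a lower (-1.78 ± 0.45) and the other 6 not. For 8 myeloid markers the sums were 136 and 159.7 FPKM, 47 and 53.8 FPKM and 41.1 and 50.5 FPKM in the same order, and Lyz2, the macrophage lysozyme, stood at 42.4 and 73.96 FPKM in the unstimulated libraries and was listed at 0 in all 4 others. Csf1r was the most abundant myeloid marker, at 68.5 and 63.9 FPKM in the unstimulated, 47 and 53.8 FPKM in the control and 41.1 and 50.4 FPKM in the SMF libraries. It made up nearly all of the myeloid sum in the stimulated libraries and was not called against unstimulated cells (-0.39 ± 0.27 and -0.53 ± 0.27). Of 6 myeloid markers tested 4 were called lower in each stimulated group, where 12.6% and 14.8% of all genes were. Cd8a itself stood at 92.5 and 105 FPKM in the unstimulated libraries, 35.5 and 59.98 FPKM in the control libraries and 192 and 186 FPKM in the SMF libraries, so a defining marker of the labelled cell type was present in every library, and it was called lower in control than in unstimulated cells (-1.08 ± 0.31). Summed over 8 CD8 T cell markers, Cd8a among them, the replicates reached 774 and 872 FPKM (unstimulated), 446 and 669 FPKM (control) and 1169 and 1095 FPKM (SMF). Log2 fold changes were below 0 for 7 of the 8 in control against unstimulated, 2 of them called lower. All 8 were above 0 in SMF against control, 4 of them called higher. In SMF against unstimulated 6 were above 0 and 2 below. Cd8b1, which encodes the partner chain of Cd8a, stood at 143 and 271 FPKM in the unstimulated libraries, 50.3 and 123 FPKM in the control libraries and 94.6 and 91.9 FPKM in the SMF libraries, lower in both SMF than in both unstimulated libraries (-1.07 ± 0.50, not called), and was called lower in control than in unstimulated cells (-1.31 ± 0.50) as Cd8a was. Cd5, the only 1 of the 8 above 0 in control against unstimulated cells, was called higher there (1.09 ± 0.33). The summed level of 3 CD4 T cell markers was 28.98 and 11.9 FPKM, 11.9 and 21.5 FPKM and 11.9 and 11.8 FPKM in the same order, with Foxp3 the most abundant. These sums overlapped between groups, as did Foxp3, whereas Cd40lg was listed at 0 in all 4 stimulated libraries and called lower in both stimulated groups (-2.29 ± 0.68 and -2.29 ± 0.68), and Cd4 was listed at 0 in both SMF libraries and called lower there (-2.06 ± 0.79). The sum of 5 NK cell markers was 40.7 and 22.3 FPKM, 10.3 and 5.73 FPKM and 3.67 and 6.74 FPKM, with Eomes, which CD8 T cells also express, the most abundant. Of 7 erythroid markers Alas2 alone exceeded 3 FPKM in any library. The part of these other cells in the differences from unstimulated cells was not tested, and in bulk RNA fewer cells of a type and less RNA per cell cannot be told apart.

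The total RNA of the 31 genes was lowest in the unstimulated libraries and highest in the SMF libraries. The summed level was 520.3 and 480.2 FPKM in the unstimulated, 792 and 1097 FPKM in the control and 2052 and 2157 FPKM in the SMF libraries. As a share of the FPKM of protein-coding genes in the same library, the sum was 0.220 and 0.194%, 0.300 and 0.399% and 0.606 and 0.633%, so the groups kept their order and did not overlap. Such a share removes only the difference in the protein-coding part of all FPKM, and other differences between libraries may remain in it. In control against unstimulated cells 14 of the 30 genes tested were called higher (46.7%) and 0 lower, where 12.3% of all genes tested were called higher and 12.6% lower. In SMF against unstimulated cells 25 were called higher (83.3%) and 0 lower, with a background of 22.4% higher and 14.8% lower. In SMF against control cells 12 were called higher (40%) and 0 lower, with a background of 12.5% higher and 5.72% lower among all genes and 15.9% higher among protein-coding genes. The background of that comparison turned with the scaling, to 5.85% higher and 9.61% lower with every library shifted to 1 median and to 5.73% higher and 9.05% lower with an equal FPKM sum over multi-exon protein-coding genes, and 7 of the 30 genes were called higher under each (0 lower). At an adjusted p under 0.05 in limma, 3 of the 30 genes were higher in control against unstimulated (Phgdh, Psat1 and Mthfd1l, background 4.52%). By that rule 22 were higher in SMF against unstimulated (background 14.2%) and 0 in SMF against control, where 3 of all genes tested were higher (0.02%).

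For 29 of the 30 genes tested each SMF library exceeded each control library, where this held for 37.4% of all genes and 48.7% of protein-coding genes. The exception was Psph. Each SMF library exceeded each unstimulated library for 27 (background 39.7%). Both control libraries lay above both unstimulated libraries for 16 genes (background 24.8%) and below them for 2, Mat2a and Ctps2 (background 26.6%). The median log2 fold change of the 30 genes was 1.02 in control against unstimulated, 2.64 in SMF against unstimulated and 1.20 in SMF against control, beside -0.05, 0.27 and 0.32 over all genes tested. Because both stimulated groups are compared with the same unstimulated libraries, and both differences involving control cells with the same control libraries, these values are not independent.

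**Figure D1:**
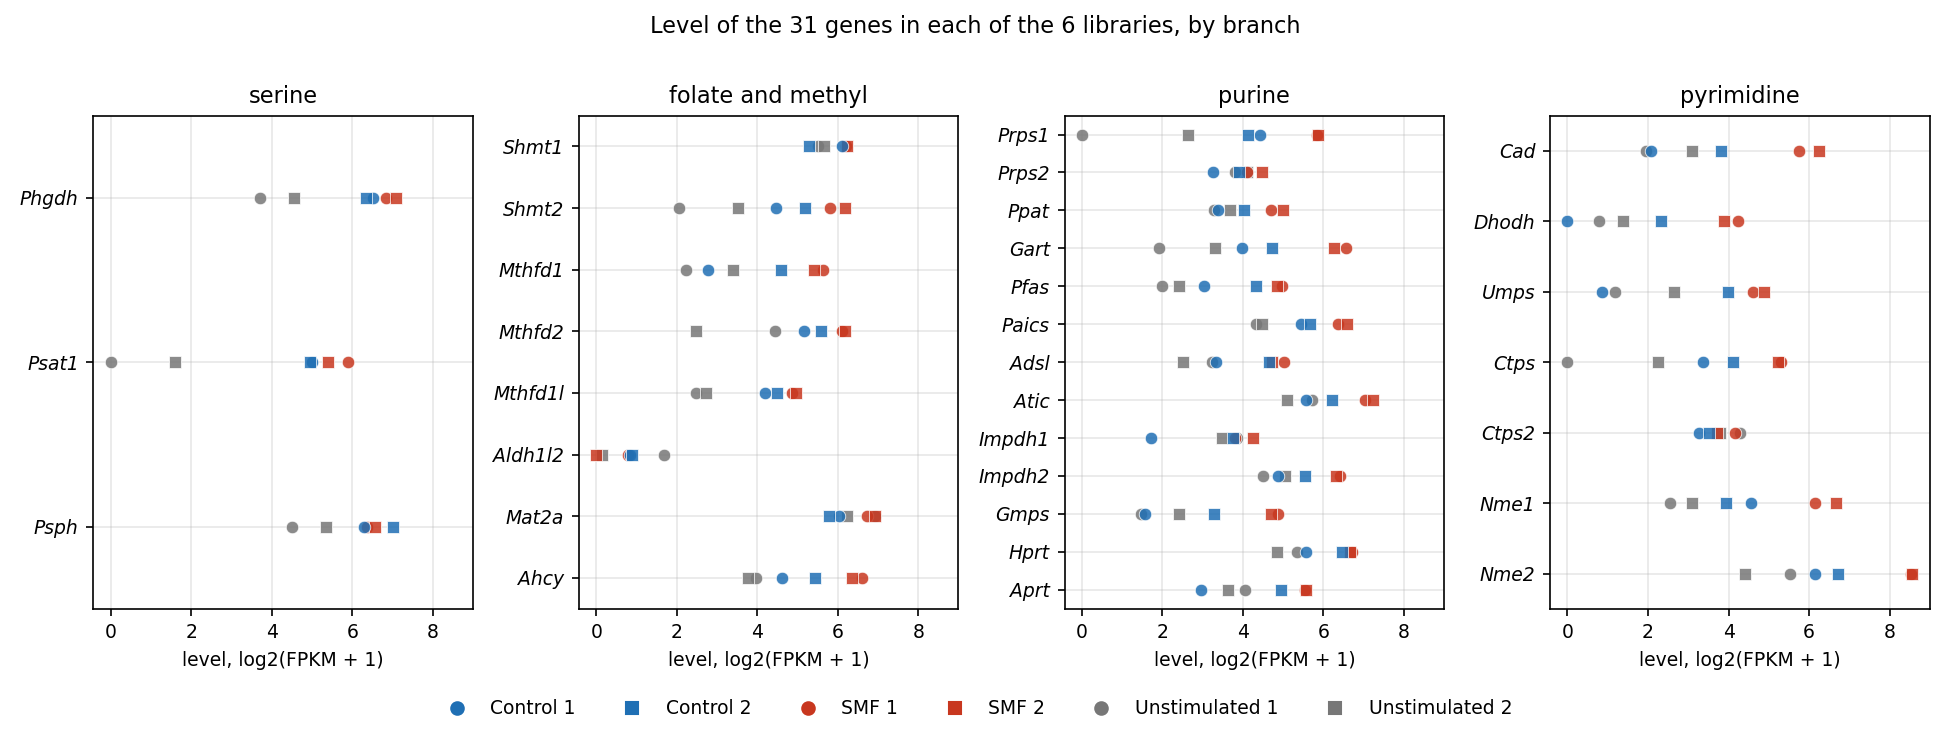
Levels of the 31 genes as log2(FPKM + 1) on the horizontal axis, 1 row per gene and 1 panel per branch, with 1 point per library (circles replicate 1, squares replicate 2). The SMF points lie to the right of the control points for 29 of the 30 genes tested, and the unstimulated points of the serine genes lie to the left of all others.

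All 3 genes of serine synthesis were called higher in both stimulated groups than in unstimulated cells, and none of them in SMF against control. Phgdh, phosphoglycerate dehydrogenase, catalyses its first step and lies at chr3:98313170-98339990 (GRCm38) on the minus strand. Its level was 12.1 and 22.6 FPKM in the unstimulated libraries, 89.7 and 79.5 FPKM in the control libraries and 114 and 135 FPKM in the SMF libraries. Both stimulated groups lay far above the unstimulated libraries, and the SMF libraries above the control libraries by less. Phgdh was called higher in control against unstimulated (log2 fold change 2.28 ± 0.36, adjusted p = 0.0202) and in SMF against unstimulated (2.83 ± 0.36, adjusted p = 0.00627). Between SMF and control it did not reach the fold or the p required (0.55 ± 0.36, adjusted p = 0.413).

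Psat1, the transaminase of the second step, had the largest log2 fold change of the 30 genes in both comparisons with unstimulated cells in this fit. It stood at 0 and 2.01 FPKM in the unstimulated libraries, 31.2 and 29.8 FPKM in the control libraries and 58.6 and 40.9 FPKM in the SMF libraries. The 2 control libraries were close to each other and stood below both SMF libraries. The log2 fold change was 4.18 ± 0.58, adjusted p = 0.0159 in control against unstimulated, 4.85 ± 0.58, adjusted p = 0.00587 in SMF against unstimulated and 0.67 ± 0.58, adjusted p = 0.532 in SMF against control, the last not called. Psph, the phosphatase that releases serine, stood at 21.7 and 40.02 FPKM in the unstimulated libraries, 76.9 and 129 FPKM in the control libraries and 81.5 and 93.4 FPKM in the SMF libraries. Control replicate 2 held more Psph RNA than either SMF library. Psph was called higher in control cells (1.72 ± 0.41) and in SMF cells (1.53 ± 0.41) than in unstimulated cells, and its SMF against control value was -0.19 ± 0.41, adjusted p = 0.825. Thus 3 of 3 serine genes were called higher in control cells and 0 of 3 in SMF against control. Of all genes tested 12.3% and 12.5% were called higher in these comparisons, so 0 of 3 is near the background. Differences between branches were not tested. Within each run the control library exceeded its unstimulated partner for all 3, by 2.79 and 1.77 for Phgdh, 5.01 and 3.36 for Psat1 and 1.78 and 1.67 for Psph on the log2 scale in 2017 June and November.

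Shmt2, Mthfd2 and Mthfd1l, which carry the mitochondrial arm of the folate cycle, were likewise called higher in both stimulated groups and not in SMF against control in this fit. Shmt2, the mitochondrial serine hydroxymethyltransferase, which moves the carbon of serine onto folate, stood at 3.16 and 10.4 FPKM in the unstimulated libraries, 21.02 and 35.1 FPKM in the control libraries and 54.9 and 71.8 FPKM in the SMF libraries. The 3 groups did not overlap and the order was unstimulated, control, SMF. Shmt2 was called higher in control (2.03 ± 0.56, adjusted p = 0.0788) and in SMF cells (3.21 ± 0.56, adjusted p = 0.0138) than in unstimulated cells. The SMF against control value missed the p required (1.18 ± 0.56, adjusted p = 0.288). With a replicate block, or with SMF and control alone in the fit, Shmt2 was called higher in that comparison. Mthfd2, the mitochondrial dehydrogenase and cyclohydrolase, stood at 20.9 and 4.58 FPKM in the unstimulated libraries, 34.9 and 46.6 FPKM in the control libraries and 67.8 and 71.9 FPKM in the SMF libraries. The 2 unstimulated libraries differed more than the stimulated ones did. The log2 fold change was 1.90 ± 0.64, adjusted p = 0.121 in control against unstimulated, 2.68 ± 0.64, adjusted p = 0.031 in SMF against unstimulated and 0.78 ± 0.64, adjusted p = 0.506 in SMF against control. Mthfd1l, the mitochondrial formate-tetrahydrofolate ligase, stood at 4.54 and 5.58 FPKM in the unstimulated libraries, 17.3 and 21.4 FPKM in the control libraries and 27.98 and 30.2 FPKM in the SMF libraries. Replicates of Mthfd1l agreed closely in each group. It was called higher in control (1.75 ± 0.35, adjusted p = 0.0365) and SMF cells (2.32 ± 0.35, adjusted p = 0.00984), with 0.57 ± 0.35, adjusted p = 0.393 in SMF against control.

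Neither cytosolic folate enzyme was called in control against unstimulated cells. Mthfd1, the cytosolic enzyme with 3 activities, stood at 3.68 and 9.46 FPKM in the unstimulated libraries, 5.83 and 23.01 FPKM in the control libraries and 48.4 and 41.8 FPKM in the SMF libraries. Control replicate 1 lay between the unstimulated libraries and control replicate 2 above them. Mthfd1 was not called in control against unstimulated (0.87 ± 0.70, adjusted p = 0.464). It was called higher in SMF against unstimulated (2.72 ± 0.70, adjusted p = 0.0382) and SMF against control (1.84 ± 0.70, adjusted p = 0.218). The last call was lost when every library was scaled to the same median or to the same protein-coding sum, and with SMF and control alone. Shmt1, the cytosolic hydroxymethyltransferase, stood at 44.6 and 49.3 FPKM in the unstimulated libraries, 67.7 and 37.8 FPKM in the control libraries and 72.4 and 73.5 FPKM in the SMF libraries, and its log2 fold changes were 0.11 ± 0.35, adjusted p = 0.878, 0.63 ± 0.35, adjusted p = 0.233 and 0.52 ± 0.35, adjusted p = 0.421 in the same 3 comparisons, none of them called. In the methyl cycle, Mat2a, which makes S-adenosylmethionine, stood at 121 and 73.5 FPKM in the unstimulated libraries, 64.5 and 53.5 FPKM in the control libraries and 104 and 121 FPKM in the SMF libraries. Summed over its transcripts it was the most abundant of the 31 genes in both unstimulated libraries and lay lower in both control libraries, with a log2 fold change of -0.67 ± 0.32 that was not called. The single-exon retained-intron transcript Mat2a-207 took 57.6 and 23.6 FPKM of the unstimulated level. On protein-coding transcripts alone Mat2a stood at 38.4 and 48.4 FPKM in the unstimulated and 42.8 and 38.9 FPKM in the control libraries, which overlapped. It was then the most abundant in neither unstimulated library, being below Nme2 (44.9 FPKM), Shmt1 (42.4 FPKM) and Hprt (39.8 FPKM) in replicate 1 and below Shmt1 (49.3 FPKM) in replicate 2. With the most abundant transcript only, Mat2a was called higher in SMF against unstimulated (2.38). Ahcy, which removes S-adenosylhomocysteine, stood at 14.7 and 12.7 FPKM in the unstimulated libraries, 23.5 and 42.02 FPKM in the control libraries and 96.7 and 81.3 FPKM in the SMF libraries. Its groups were in the order unstimulated, control, SMF without overlap, and it was called higher in control against unstimulated (1.14 ± 0.37), SMF against unstimulated (2.61 ± 0.37) and SMF against control (1.47 ± 0.37). Of the 7 tested genes of this branch, 4 were called higher in control against unstimulated, 5 in SMF against unstimulated and 2 in SMF against control. Of all genes tested 12.3%, 22.4% and 12.5% were.

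**Figure D2:**
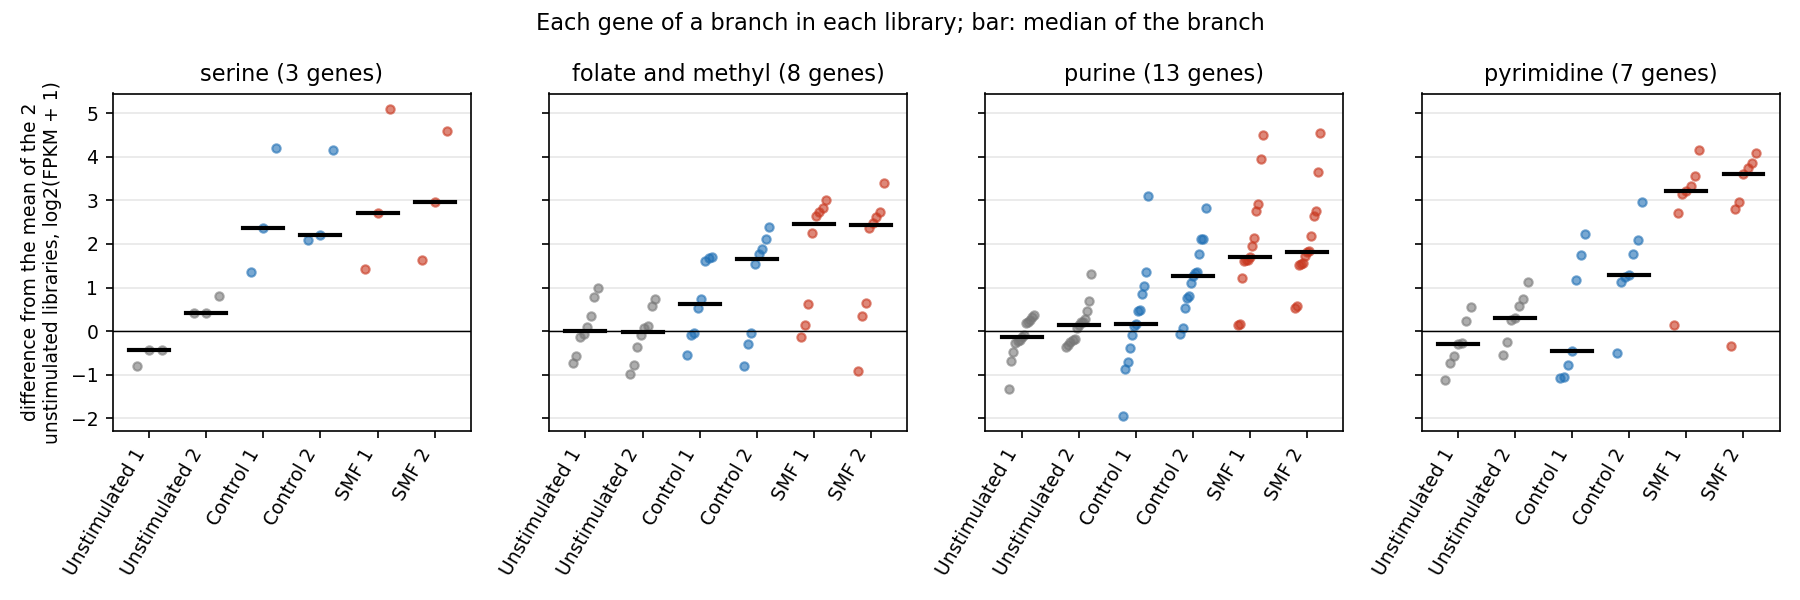
Each gene of a branch (points) and the median of the branch (bar) in each library, as the difference of log2(FPKM + 1) from the mean of the 2 unstimulated libraries on the vertical axis. The serine medians were 2.37 and 2.20 for control cells beside 2.71 and 2.95 for SMF cells, while the pyrimidine medians were -0.46 and 1.28 against 3.23 and 3.60.

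In the purine branch the 2 control libraries differed from each other. Control replicate 1 had a branch median of 0.16 over the unstimulated mean on the log2 scale, control replicate 2 of 1.26, and the SMF libraries of 1.70 and 1.82. By the limma test 4 of 13 purine genes were called higher in control against unstimulated, 11 in SMF against unstimulated and 6 in SMF against control. Of all genes tested 12.3%, 22.4% and 12.5% were. Ppat, the amidotransferase that commits PRPP to the pathway, stood at 8.71 and 11.9 FPKM in the unstimulated libraries, 9.49 and 15.2 FPKM in the control libraries and 24.9 and 30.9 FPKM in the SMF libraries. Control and unstimulated libraries were intermixed and both SMF libraries lay above them. Its log2 fold change was 0.22 ± 0.40, adjusted p = 0.771 in control against unstimulated, 1.36 ± 0.40, adjusted p = 0.0554 in SMF against unstimulated and 1.14 ± 0.40, adjusted p = 0.201 in SMF against control. The last call was lost under either scaling and the one before it with an equal FPKM sum, and with the most abundant transcript only both turned negative (-0.99 and -1.21). The next steps are shared by Gart, Pfas, Paics, Adsl and Atic. Gart, which catalyses 3 of them and takes up a formyl carbon, stood at 2.79 and 8.87 FPKM in the unstimulated libraries, 14.7 and 25.5 FPKM in the control libraries and 93.8 and 76.3 FPKM in the SMF libraries. It was ordered without overlap and was called higher in control against unstimulated (1.74 ± 0.55), SMF against unstimulated (3.81 ± 0.55, adjusted p = 0.00863) and SMF against control (2.07 ± 0.55).

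Of the other ring-building enzymes, Pfas stood at 2.95 and 4.32 FPKM in the unstimulated libraries, 7.23 and 18.99 FPKM in the control libraries and 30.1 and 27.6 FPKM in the SMF libraries and was called higher in both comparisons with unstimulated cells (1.48 ± 0.52 and 2.70 ± 0.52). Paics was called higher in the same 2 comparisons, from 19.1 and 21.4 FPKM in unstimulated to 42.3 and 49.6 FPKM in control and 81.8 and 95.1 FPKM in SMF cells. Replicates of Paics lay close together in each group. Adsl stood at 8.47 and 4.67 FPKM in the unstimulated libraries, 9.02 and 24.1 FPKM in the control libraries and 31.3 and 25.2 FPKM in the SMF libraries, with SMF values that exceeded control replicate 2 by little, and was called higher only in SMF against unstimulated (1.99 ± 0.55). Atic, the enzyme that closes the ring, stood at 51.5 and 32.9 FPKM in the unstimulated libraries, 46.3 and 72.8 FPKM in the control libraries and 130.0 and 148 FPKM in the SMF libraries. Control replicate 1 lay between the unstimulated libraries, and Atic was called higher in SMF against unstimulated (1.73 ± 0.35) and SMF against control (1.24 ± 0.35), the last lost under either scaling.

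From the ring, inosine monophosphate, the pathway forks to GMP and AMP. Impdh2, the rate-limiting enzyme toward GMP in dividing lymphocytes, stood at 21.7 and 32 FPKM in the unstimulated libraries, 28.5 and 45.7 FPKM in the control libraries and 83.7 and 78.3 FPKM in the SMF libraries. Control replicate 1 lay between the unstimulated libraries. The log2 fold change was 0.44 ± 0.36, adjusted p = 0.476 in control against unstimulated, 1.58 ± 0.36, adjusted p = 0.0273 in SMF against unstimulated and 1.14 ± 0.36, adjusted p = 0.179 in SMF against control, the last called but lost under either scaling. The isozyme Impdh1 stood at 13.4 and 10.2 FPKM in the unstimulated libraries, 2.31 and 12.4 FPKM in the control libraries and 13.04 and 18 FPKM in the SMF libraries, its low value was that of control replicate 1, and no comparison was called (-0.93 ± 0.70, adjusted p = 0.435, 0.36 ± 0.70, adjusted p = 0.733 and 1.29 ± 0.70, adjusted p = 0.337 in the same order). Gmps, which completes GMP, stood at 1.79 and 4.33 FPKM in the unstimulated libraries, 1.95 and 8.69 FPKM in the control libraries and 28.02 and 25.1 FPKM in the SMF libraries. Control replicate 1 was at the unstimulated level and control replicate 2 above it. Gmps was not called in control against unstimulated (0.47 ± 0.68) and was called higher in SMF against unstimulated (2.84 ± 0.68, adjusted p = 0.032) and SMF against control (2.36 ± 0.68, adjusted p = 0.168).

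PRPP itself comes from Prps1 and Prps2. Prps1 stood at 0 and 5.25 FPKM in the unstimulated libraries, 20.6 and 16.6 FPKM in the control libraries and 55.8 and 57.5 FPKM in the SMF libraries. The groups did not overlap, and it was called higher in control against unstimulated (2.96 ± 0.83, adjusted p = 0.0812) and SMF against unstimulated (4.53 ± 0.83, adjusted p = 0.0155), with 1.56 ± 0.83, adjusted p = 0.332 in SMF against control. Its values depended on the unstimulated library used, at 1.64 in control and 3.20 in SMF against unstimulated without replicate 1 and 4.29 and 5.85 without replicate 2. In control replicate 1 the non-coding transcript Prps1-202 took 18.8 FPKM and the coding Prps1-201 1.80 FPKM. With the most abundant transcript only the control call was lost. Prps2 stood at 13.1 and 16.1 FPKM in the unstimulated libraries, 8.54 and 13.8 FPKM in the control libraries and 16.2 and 21.3 FPKM in the SMF libraries, with log2 fold changes of -0.38 ± 0.40, adjusted p = 0.589, 0.34 ± 0.40, adjusted p = 0.564 and 0.72 ± 0.40, adjusted p = 0.351, none called. The salvage enzymes return free bases to nucleotides. Hprt stood at 39.8 and 27.6 FPKM in the unstimulated libraries, 46.7 and 87.03 FPKM in the control libraries and 103 and 100.4 FPKM in the SMF libraries and was called higher only in SMF against unstimulated (1.59 ± 0.38). Aprt stood at 15.7 and 11.4 FPKM in the unstimulated libraries, 6.83 and 30.1 FPKM in the control libraries and 45.8 and 46.2 FPKM in the SMF libraries. Control replicate 1 lay below both unstimulated libraries and replicate 2 above them, and Aprt was called higher in SMF against unstimulated (1.71 ± 0.65) and SMF against control (1.59 ± 0.65), both calls lost under either scaling.

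The pyrimidine branch had the highest median log2 fold change of the 4 in SMF against control, at 2.16, beside 1.22 for the purine, 0.92 for the folate and methyl and 0.55 for the serine branch. That pyrimidine median was the value of Nme1, which is not specific to pyrimidines. Cad, the fused enzyme of the first 3 steps, lies at chr5:31054780-31078479 (GRCm38) on the plus strand and stood at 2.84 and 7.59 FPKM in the unstimulated libraries, 3.18 and 13 FPKM in the control libraries and 52.8 and 75.5 FPKM in the SMF libraries. Control replicate 1 was within the unstimulated range, control replicate 2 above it, and both SMF libraries far above all 4. The log2 fold change of Cad was 0.41 ± 0.70, adjusted p = 0.754 in control against unstimulated, 3.48 ± 0.70, adjusted p = 0.0198 in SMF against unstimulated and 3.07 ± 0.70, adjusted p = 0.141 in SMF against control, the largest of the 30 genes in that comparison in this fit. Without control replicate 2 the value of Dhodh was larger (4.05, with 3.94 for Cad). It was also larger without SMF replicate 2 and with a pseudocount of 0.1, gene TPM or the most abundant transcript only. Without control replicate 1 the value of Nme1 was larger (2.47, with 2.20 for Cad). Dhodh, the next enzyme, which sits in the inner mitochondrial membrane, stood at 0.707 and 1.60 FPKM in the unstimulated libraries, 0 and 4.02 FPKM in the control libraries and 17.7 and 13.7 FPKM in the SMF libraries. It was listed at 0 in the shallowest library, control replicate 1. Its log2 fold change was 0.09 ± 0.84, adjusted p = 0.967 in control against unstimulated, 2.98 ± 0.84 in SMF against unstimulated and 2.89 ± 0.84, adjusted p = 0.169 in SMF against control.

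Umps, the enzyme that completes UMP, stood at 1.26 and 5.21 FPKM in the unstimulated libraries, 0.804 and 14.9 FPKM in the control libraries and 23.5 and 28.4 FPKM in the SMF libraries. Control replicate 1 was below both unstimulated libraries and control replicate 2 above both, and its SE was the largest of the 30 genes. Umps was called higher in SMF against unstimulated (2.84 ± 1.06). That call was lost with an equal FPKM sum, with a pseudocount of 0.1 and without any 1 of the 4 libraries compared. Its SMF against control value of 2.33 ± 1.06 missed the p required. Ctps, the CTP synthase of proliferating lymphocytes, stood at 0 and 3.78 FPKM in the unstimulated libraries, 9.29 and 16.1 FPKM in the control libraries and 38.2 and 36.4 FPKM in the SMF libraries. The groups were ordered without overlap. The log2 fold change was 2.60 ± 0.77, adjusted p = 0.0916 in control against unstimulated, 4.13 ± 0.77, adjusted p = 0.0162 in SMF against unstimulated and 1.53 ± 0.77, adjusted p = 0.31 in SMF against control. Its isozyme Ctps2 stood at 18.3 and 12.8 FPKM in the unstimulated libraries, 8.58 and 10.5 FPKM in the control libraries and 16.9 and 12.01 FPKM in the SMF libraries, with -0.64 ± 0.40, adjusted p = 0.365, -0.10 ± 0.40, adjusted p = 0.879 and 0.54 ± 0.40, adjusted p = 0.462 in the same comparisons, none called.

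The nucleoside diphosphate kinases Nme1 and Nme2, which make the triphosphates, were called higher in SMF against control cells. They lie next to each other on the minus strand of chromosome 11, Nme2 at chr11:93949814-93956259 and Nme1 at chr11:93956979-93968521 (GRCm38), 719 bases apart. Nme1 stood at 4.85 and 7.47 FPKM in the unstimulated libraries, 22.5 and 14.4 FPKM in the control libraries and 69.8 and 101 FPKM in the SMF libraries. Nme2 stood at 44.9 and 20.3 FPKM in the unstimulated libraries, 69.2 and 105 FPKM in the control libraries and 369 and 378 FPKM in the SMF libraries and was the most abundant of the 31 genes in both SMF libraries. For either gene the 3 groups did not overlap. The log2 fold change of Nme1 was 1.43 ± 0.41, adjusted p = 0.0855 in control against unstimulated, 3.60 ± 0.41, adjusted p = 0.00517 in SMF against unstimulated and 2.16 ± 0.41, adjusted p = 0.136 in SMF against control. That of Nme2 was 1.46 ± 0.42, adjusted p = 0.0868, 3.58 ± 0.42, adjusted p = 0.00562 and 2.12 ± 0.42, adjusted p = 0.136 in the same order. Both genes were called in SMF against control under all 19 alternatives that kept this rule for a call, as no other of the 30 genes was, and neither passed an adjusted p of 0.05 in limma. The 2 messages are close in sequence, and how the authors' alignment divided shared reads between them is not given in the sources used here. Nme1 and Nme2 were called higher in all 3 comparisons. Of the 7 genes of the pyrimidine branch, these included, 3 were called higher in control against unstimulated, 6 in SMF against unstimulated and 4 in SMF against control. Of all genes tested 12.3%, 22.4% and 12.5% were.

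**Figure D3:**
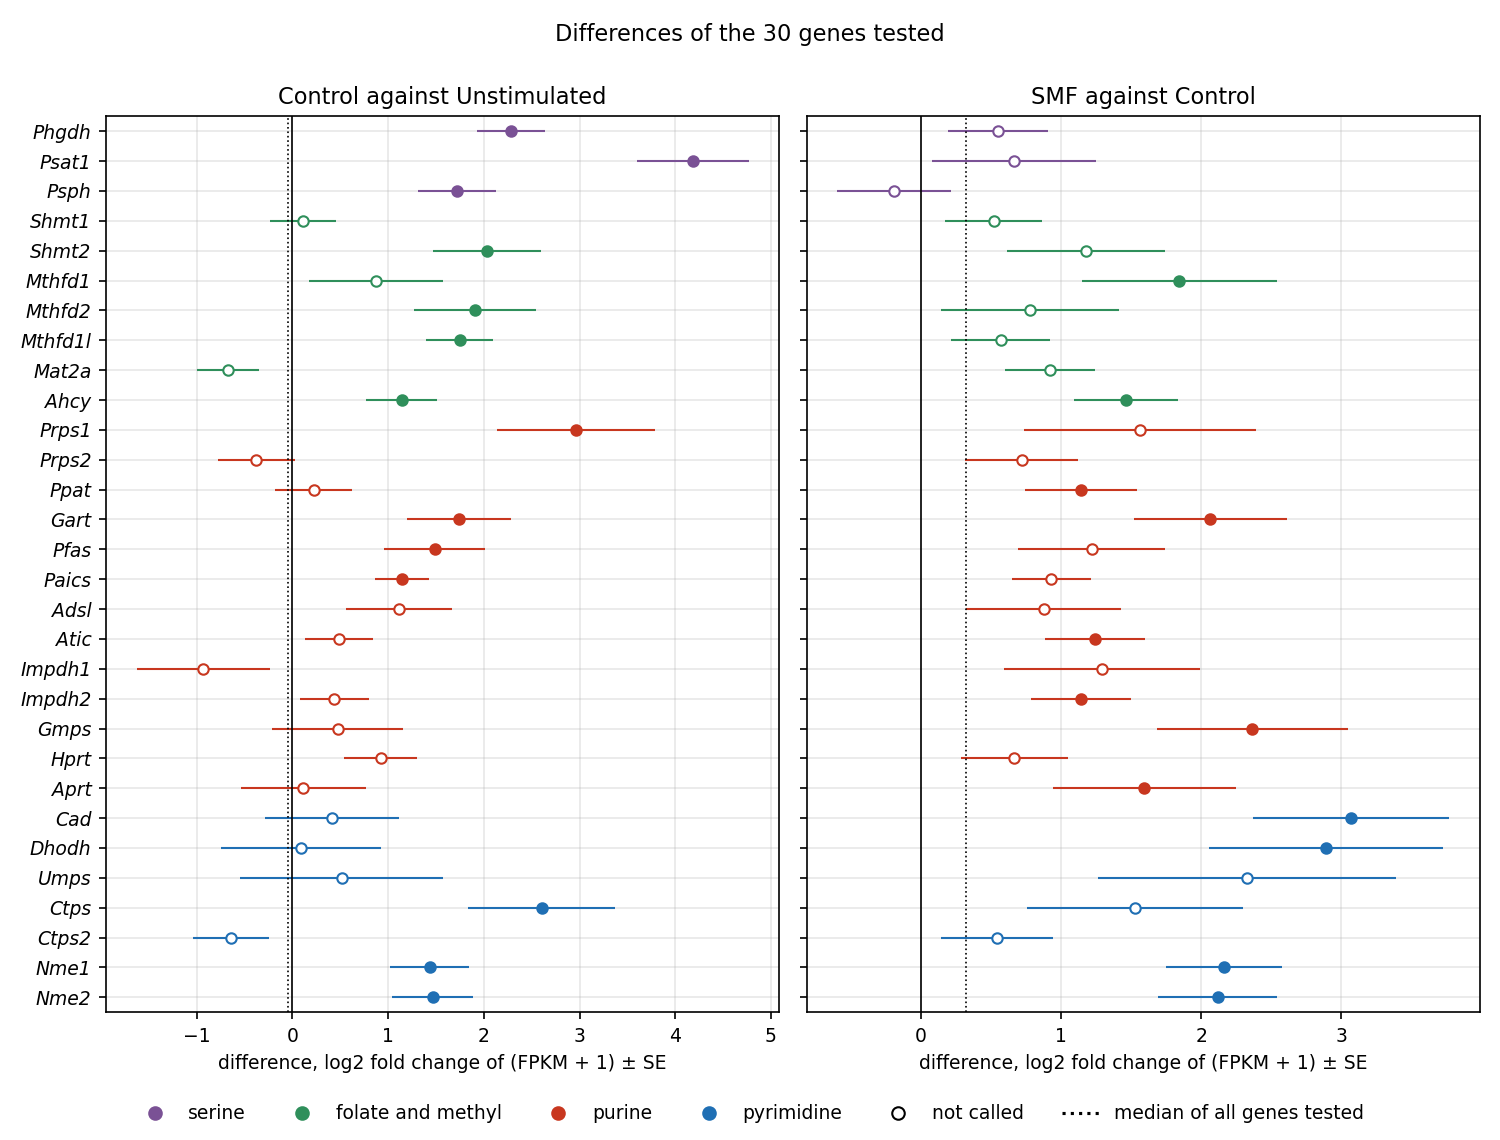
Log2 fold change of FPKM + 1 ± SE on the horizontal axis for the 30 genes tested, in control against unstimulated cells (left) and SMF against control cells (right), colored by branch, with filled points for called genes and a dotted line at the median of all genes tested. Filled points in the left panel include all 3 serine genes, and in the right panel 0 serine genes and 4 of 7 pyrimidine genes, with Cad and Dhodh farthest to the right. Of all genes tested 12.3% and 12.5% were called higher in these comparisons, and the difference between branches was not tested.

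The contrast between branches, which was not tested, rested in part on control replicate 1. Of the 31 genes 7 lay below both unstimulated libraries in that library, namely Mat2a, Prps2, Impdh1, Aprt, Dhodh, Umps and Ctps2, against 3 in control replicate 2, and 17 and 25 lay above both. Of all genes tested 37.3% and 35.05% lay below both and 35.3% and 37.8% above both in these libraries. Within the run of June 2017 the median of the 30 tested genes was 0.57 higher in the control than in the unstimulated library, and within that of November 2017 it was 1.34 higher, beside medians of 0 over all genes in both runs. The serine medians within the runs were 2.79 and 1.77, the folate and methyl medians 0.64 and 1.65, the purine medians 0.11 and 1.18 and the pyrimidine medians 0.12 and 0.95. Against control replicate 1 alone, the mean of the SMF libraries was at least 2-fold higher for 22 of the 30 genes, all 13 purine genes among them, and for 4690 of the 14991 genes. Against control replicate 2 alone this held for 10 of the 30, including 3 purine and 5 pyrimidine genes, and for 3111 of the 14991. With control replicate 1 left out of the fit, 5 genes were called in SMF against control, Ahcy, Cad, Dhodh, Nme1 and Nme2, and with control replicate 2 left out, 18 were, where 7.49% and 15.2% of all genes were called higher. Without control replicate 2, 6 genes (20%) were called in control against unstimulated, Phgdh, Psat1, Psph, Mthfd1l, Paics and Nme1, where 11.1% of all genes were. The first 4 of these were called under all 20 alternatives that kept this rule for a call, and with an adjusted p under 0.05 as the rule Psph was not. The 12 calls in SMF against control depended on the unstimulated libraries in the fit. With SMF and control alone 9 of the 12 remained. Mthfd1, Aprt and Dhodh were lost and Shmt2, Prps1 and Ctps gained, where 10.7% of all genes were called higher. Likewise the 14 calls in control against unstimulated depended on the SMF libraries in the fit. With the 2 groups alone, or with either SMF library left out, Mthfd2, Gart, Pfas and Ctps were lost. Then 10 calls remained, where 10.1% of all genes were called higher. In SMF against unstimulated 18 to 20 of the 25 calls remained when 1 unstimulated or SMF library was left out, where 15.3% to 20.3% of all genes were called higher. Aprt, Dhodh and Umps were lost each time.

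On the scale of FPKM + 1, replicates were at least 2-fold apart for 11 of the 31 genes in unstimulated, 9 in control and 0 in SMF cells. Of all genes tested 32.6%, 32.6% and 19.04% were. On FPKM without the added 1, Gmps and Dhodh in the unstimulated and Aldh1l2 in the SMF group were 2-fold apart as well. The 2 SMF libraries shared a folder date and the replicates of the other groups did not. To allow for the difference in composition, every library was shifted to 1 median, or to an equal total FPKM of multi-exon protein-coding genes. Under each, 7 genes were called higher in SMF against control, the same 7 both times, Ahcy, Gart, Gmps, Cad, Dhodh, Nme1 and Nme2, and 29 of 30 log2 fold changes were above 0, where 49.2% and 51.3% of all genes were. The rescaled medians of the 30 genes were 0.86 and 0.84. Without rescaling the same number of the 30 genes lay above 0, and 60.2% of all genes.

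Where the pathway has 2 genes for a step, the ratio of their FPKM in a library does not depend on the size of the library. Shmt2, the mitochondrial form, stood to cytosolic Shmt1 at 0.0709 and 0.212 in the unstimulated, 0.310 and 0.930 in the control and 0.759 and 0.976 in the SMF libraries. The ratio was higher in every stimulated than in every unstimulated library, and control and SMF libraries overlapped. Of protein-coding transcripts alone, the control libraries held 13.1 and 27.3 FPKM of Shmt2 and 35.6 and 24.4 FPKM of Shmt1. The SMF libraries held 39.5 and 62.4 FPKM of Shmt2 and 24.3 and 44.5 FPKM of Shmt1, and the ratio then did not overlap. Prps1 stood to Prps2 at 0 and 0.327 in the unstimulated, 2.41 and 1.20 in the control and 3.43 and 2.70 in the SMF libraries. Ctps stood to Ctps2 at 0 and 0.294, 1.08 and 1.54 and 2.26 and 3.03 in the same order. In both of these pairs the 3 groups were ordered without overlap, the first gene being listed at 0 in unstimulated replicate 1, and the gene in excess changed from Prps2 and Ctps2 in the unstimulated to Prps1 and Ctps in all stimulated libraries when all transcripts were summed. Of protein-coding transcripts alone, control replicate 1 held 1.80 FPKM of Prps1 and 8.54 FPKM of Prps2, so Prps2 was still in excess there. Impdh2 stood to Impdh1 at 1.62 and 3.13, 12.3 and 3.67 and 6.41 and 4.35, higher in stimulated cells, and its extreme value was that of control replicate 1, where Impdh1 was low. Nme2 to Nme1 ran from 2.72 to 9.25 and overlapped in all comparisons. Mthfd1 stood to Mthfd1l at 0.810 and 1.69, 0.336 and 1.08 and 1.73 and 1.38, with SMF above control libraries and unstimulated libraries overlapping both. With 2 libraries a group these ratios are descriptions, and none was tested.

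**Figure D4:**
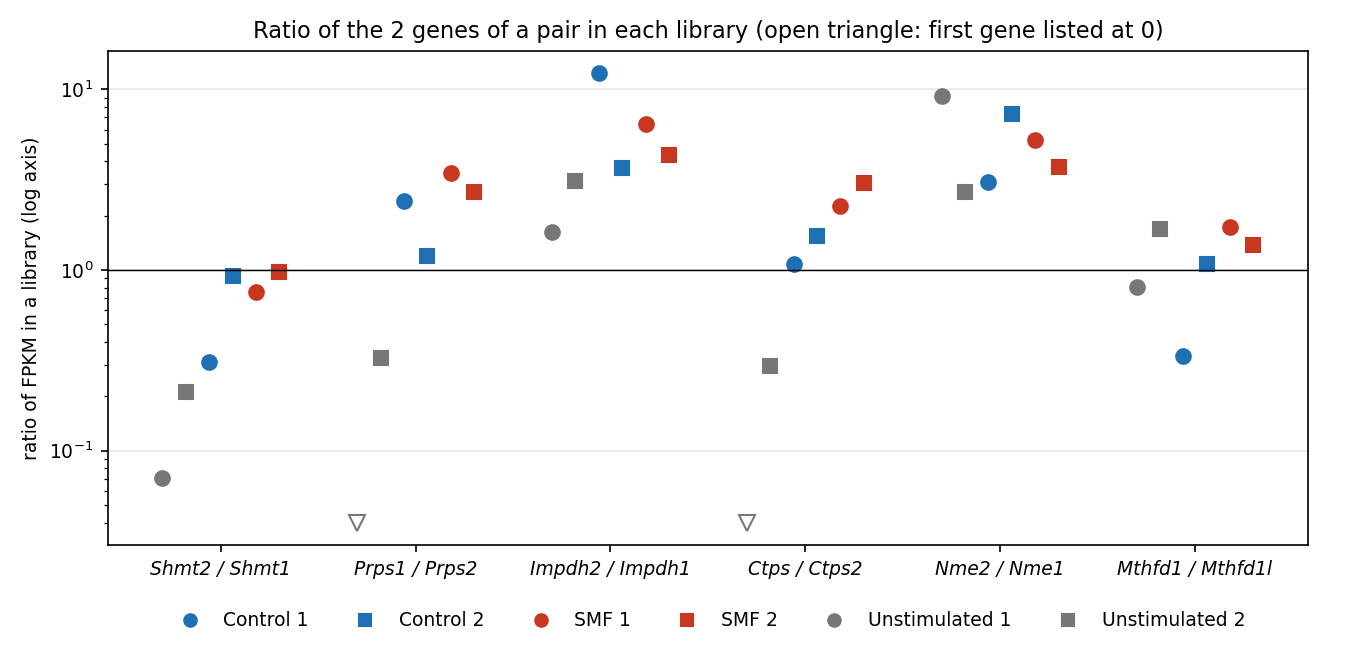
Ratio of the FPKM of the 2 genes of a pair in each library, on a logarithmic vertical axis, with 1 point per library and open triangles where the first gene was listed at 0. Prps1 and Ctps lay below their partners (ratio under 1) in the unstimulated libraries and above them in all 4 stimulated libraries, summed over all transcripts, while the points of Nme2 to Nme1 overlap between groups.

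The sum over transcripts hides which transcript the reads were assigned to. For Phgdh, the protein-coding transcript Phgdh-201 stood at 3.85 and 16.4 FPKM in the unstimulated, 29.3 and 65.9 FPKM in the control and 110.2 and 127 FPKM in the SMF libraries. The retained-intron transcript Phgdh-203 took 6.70 and 5.18 FPKM in the unstimulated, 60.5 and 7.86 FPKM in the control and 2.61 and 3.32 FPKM in the SMF libraries, so that replicate 1 of both unstimulated and control cells held more of Phgdh-203 than of Phgdh-201. For Psat1, the coding transcript Psat1-201 stood at 0 and 2.01 FPKM in the unstimulated, 7.47 and 19.4 FPKM in the control and 41.7 and 36.4 FPKM in the SMF libraries. The retained-intron transcript Psat1-204 was listed at 0 in both unstimulated libraries and took 22.9 and 10.2 FPKM in the control and 15.98 and 4.52 FPKM in the SMF libraries. Of Psat1-201 alone the groups were thus ordered unstimulated, control and SMF without overlap, and with the most abundant transcript of each gene only, the serine median in SMF against control was 1.41 in place of 0.55. All of the Ppat signal fell on the coding transcript Ppat-202 in SMF replicate 1 and on Ppat-203, annotated as a target of nonsense-mediated decay, in the other 5 libraries. For Impdh1, the coding transcript Impdh1-202 led in unstimulated and control libraries, Impdh1-207 in SMF replicate 1 and Impdh1-201 in SMF replicate 2. Counting protein-coding transcripts only, both control libraries lay above both unstimulated libraries for 18 of the 31 genes and below for 1, where this held for 26.5% and 23.6% of the 10291 tested genes with such a transcript. For 27 of the 31 genes each SMF library exceeded each control library and for 1 the order was opposite (48.1% and 10.02% of those tested genes).

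Exons of 11 of the 31 genes overlap an exon on the opposite strand. The libraries were made with a strand-specific kit and the file headers show that strand was used in the assignment. Ppat and Paics are such a pair, facing away from each other with 272 shared bases. Gart overlaps the antisense gene Gm15964, which stood at 127 and 122 FPKM in the unstimulated, 178 and 255 FPKM in the control and 133 and 159 FPKM in the SMF libraries, above Gart itself in each. Umps overlaps Gm15829, at 29 and 40.6, 129.9 and 139 and 101 and 91.7 FPKM, likewise above Umps in each library. Neither Gm15964 nor Gm15829 had the group order of its partner. Psph shares 452 bases with Cct6a, which encodes a subunit of a chaperonin and stood at 53.6 and 31.4 FPKM in the unstimulated, 138 and 163 FPKM in the control and 335 and 396 FPKM in the SMF libraries. Cct6a, like Psph, was higher in every stimulated than in every unstimulated library.

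The promoter windows of the genes (250 bases before to 50 after the start, RefSeq, GRCm38.p6) were searched for CACGTG, the E-box read by MYC and related factors, which is the same on both strands. Windows were found for 28 of the 31 genes, and 4 of the 28 (14.3%) held it, against 7.15% of all 32851 windows of the table and 10.1% of the windows of 8820 tested genes. The 4 windows are shown, because they are the only ones of the 28 with the E-box, with the motif in capitals. They lie at chr5:76951052-76951351 on the plus strand for Paics, chr1:71556906-71557205 on the plus strand for Atic, chr9:108560186-108560485 on the plus strand for Impdh2 and chr11:93968223-93968522 on the minus strand for Nme1.
Paics: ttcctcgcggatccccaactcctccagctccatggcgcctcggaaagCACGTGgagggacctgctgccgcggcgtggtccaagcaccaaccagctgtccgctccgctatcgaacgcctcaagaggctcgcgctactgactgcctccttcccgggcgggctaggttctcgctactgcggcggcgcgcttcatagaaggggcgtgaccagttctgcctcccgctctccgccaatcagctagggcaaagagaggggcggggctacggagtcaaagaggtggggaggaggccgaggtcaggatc
Atic: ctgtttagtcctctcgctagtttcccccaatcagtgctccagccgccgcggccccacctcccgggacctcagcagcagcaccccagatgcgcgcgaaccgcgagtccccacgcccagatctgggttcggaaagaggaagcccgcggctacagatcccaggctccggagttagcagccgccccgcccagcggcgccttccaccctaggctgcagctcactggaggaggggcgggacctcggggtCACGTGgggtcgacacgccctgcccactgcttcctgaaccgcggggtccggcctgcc
Impdh2: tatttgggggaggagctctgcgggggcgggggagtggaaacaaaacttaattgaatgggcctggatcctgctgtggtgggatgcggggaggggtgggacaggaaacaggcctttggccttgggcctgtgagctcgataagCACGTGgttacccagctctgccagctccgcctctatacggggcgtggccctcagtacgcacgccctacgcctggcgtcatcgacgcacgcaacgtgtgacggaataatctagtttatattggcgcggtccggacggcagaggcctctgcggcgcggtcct
Nme1: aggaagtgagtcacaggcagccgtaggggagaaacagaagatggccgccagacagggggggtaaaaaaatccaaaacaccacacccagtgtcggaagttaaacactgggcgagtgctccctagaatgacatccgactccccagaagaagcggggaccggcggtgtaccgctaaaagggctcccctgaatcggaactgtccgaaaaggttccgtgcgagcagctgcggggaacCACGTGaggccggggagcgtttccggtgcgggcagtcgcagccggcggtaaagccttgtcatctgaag

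All 4 of these genes were among the 25 of 30 called higher in SMF against unstimulated, where 22.4% of all genes tested were. In control against unstimulated Paics and Nme1 were called higher, and Atic and Impdh2 were not (0.48 ± 0.35 and 0.44 ± 0.36). In SMF against control Atic, Impdh2 and Nme1 were called higher, and Paics was not. The background of higher calls was 12.3% and 12.5% in these last comparisons. The start sites of Impdh2 and Nme1 in RefSeq lie 150 and 249 bases from those in the files, so their windows differ from the annotated starts used for the levels. The other motifs were searched on both strands. TGATGNAA, the element read by ATF4, was found in 1 of 28 windows (3.57%, against 3.97% of all windows and 2.19% of those of tested genes), in that of Prps1. CCAAT was found in 13 (46.4%, against 37.4%), including 3 copies each in Psat1 and Mthfd2. GGGCGG, the GC box, was found in 21 (75%, against 35.7% of all windows and 63.4% of those of tested genes). The NRF1 element was found in 3 (10.7%, against 4.60% of all windows and 11.2% of those of tested genes), Shmt2, Ppat and Ctps. A match is a string of letters and not a shown site, and a factor may bind outside these windows.

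The other genes of the pathway were 85 gene entries in 5 lists, of which 70 passed the filter. The 8 names in the list of ATF4, MYC and their partners matched 9 entries. In control against unstimulated 20 were called higher and 6 lower, in SMF against unstimulated 32 and 5, and in SMF against control 19 and 0. The shares called higher were 28.6%, 45.7% and 27.1%, beside 12.3%, 22.4% and 12.5% of all genes tested. Of all genes tested 12.6%, 14.8% and 5.72% were called lower, and the lower calls here did not exceed those shares. In the next sentence the background is that of higher calls. In control against unstimulated the shares for purine interconversion and breakdown (15.8%, 3 of 19) and pyrimidine salvage and breakdown (11.1%, 1 of 9) were near that background. The list of deoxynucleotide synthesis, which supplies DNA, held the largest differences from unstimulated cells. Of 13 genes 6 were called higher and 1 lower in control against unstimulated, 7 and 1 in SMF against unstimulated and 6 and 0 in SMF against control. Rrm2, the regulated subunit of ribonucleotide reductase, stood at 0 and 1.18 FPKM in the unstimulated libraries, 51.4 and 42.6 FPKM in the control libraries and 106 and 106 FPKM in the SMF libraries, and its log2 fold change was 5.02 ± 0.45 in control against unstimulated and 1.16 ± 0.45 in SMF against control. Rrm1, the large subunit, stood at 1.56 and 2.01 FPKM in the unstimulated libraries, 35.3 and 45.8 FPKM in the control libraries and 127 and 127 FPKM in the SMF libraries. In both subunits the stimulated libraries were far above the unstimulated ones, and the log2 fold change of Rrm1 was 3.89 ± 0.32 and 1.64 ± 0.32 in the same comparisons. Tyms, thymidylate synthase, which consumes methylene-tetrahydrofolate, was listed at 0 in both unstimulated libraries and stood at 4.62 and 7.24 FPKM in the control and 33.4 and 15.7 FPKM in the SMF libraries, with 1.82 ± 0.56 in SMF against control. Dut, which removes dUTP, stood at 6.83 and 4.66 FPKM in the unstimulated libraries, 24.6 and 14.8 FPKM in the control libraries and 74.96 and 65.5 FPKM in the SMF libraries and was called higher in all 3 comparisons. Dctpp1 was listed at 0 in both unstimulated libraries and in control replicate 1 and stood at 24.3 and 27.8 FPKM in the SMF libraries.

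Not every enzyme of thymidine supply followed. Tk1, thymidine kinase 1, stood at 41.1 and 72.7 FPKM in the unstimulated libraries, 91.2 and 71.2 FPKM in the control libraries and 103 and 79.8 FPKM in the SMF libraries and was not called in any comparison. Tk2, the mitochondrial thymidine kinase, stood at 24.7 and 12.3 FPKM in the unstimulated libraries, 0 and 0.908 FPKM in the control libraries and 1.86 and 3.34 FPKM in the SMF libraries and was called lower in control (-3.74 ± 0.63) and SMF cells (-2.39 ± 0.63) than in unstimulated cells.

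Among 21 tested further genes of serine and folate use, 6 were called higher and 1 lower in control against unstimulated, 7 and 1 in SMF against unstimulated and 5 and 0 in SMF against control. The background was 12.3%, 22.4% and 12.5% for higher calls and 12.6%, 14.8% and 5.72% for lower calls. Gcsh, of the glycine cleavage system, stood at 3.39 and 0.850 FPKM in the unstimulated libraries, 10.6 and 10.5 FPKM in the control libraries and 27.96 and 38.5 FPKM in the SMF libraries. Its groups did not overlap and it was called higher in control against unstimulated (2.02 ± 0.53), SMF against unstimulated (3.57 ± 0.53) and SMF against control (1.55 ± 0.53). Slc19a1, the reduced folate carrier, stood at 1.16 and 0.827 FPKM in the unstimulated libraries, 0 and 9.88 FPKM in the control libraries and 15.7 and 11.7 FPKM in the SMF libraries and was called higher in SMF against unstimulated (2.88 ± 1.09). Slc25a32, the mitochondrial folate carrier, and Mtap, which salvages methylthioadenosine, were called higher in SMF against control (1.70 ± 0.49 and 1.80 ± 0.70). Mthfs, which returns folinic acid to the pool, and Mtrr, which reactivates methionine synthase, were called higher in control against unstimulated (2.94 ± 0.74 and 2.92 ± 0.85), each with its highest value in control replicate 1. Sds, which breaks serine down, went the other way, from 31.9 and 22.5 FPKM in unstimulated to 4.76 and 3.99 FPKM in control and 0 and 7.49 FPKM in SMF cells, and was called lower in control (-2.37 ± 0.98) and SMF cells (-3.25 ± 0.98).

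Of 19 tested genes of purine interconversion and breakdown, 3 were called higher and 2 lower in control against unstimulated, 9 and 2 in SMF against unstimulated and 5 and 0 in SMF against control. Background shares were 12.3%, 22.4% and 12.5% higher and 12.6%, 14.8% and 5.72% lower in the same order. Ampd1 and Ampd3, AMP deaminases, were called lower in both stimulated groups. Ampd1 fell from 5.16 and 4.92 FPKM to a listing at 0 in all 4 stimulated libraries, and Ampd3 from 14.4 and 9.83 FPKM to 1.29 and 3.15 FPKM in control and 0.531 and 1.19 FPKM in SMF cells. The isozyme Ampd2 was called higher in SMF against unstimulated (3.78 ± 0.96), as were Itpa, which clears ITP (3.52 ± 1.07) and Guk1, guanylate kinase, which was listed at 0 in both unstimulated libraries and stood at 14.1 and 13.7 FPKM in the SMF libraries. Ak4, a mitochondrial adenylate kinase, was called higher in both stimulated groups, from a listing at 0 in both unstimulated libraries to 2.71 and 5.39 FPKM in control and 1.42 and 8.98 FPKM in SMF cells. In SMF against control the largest log2 fold changes were those of Nudt1 (3.34 ± 1.01), which clears oxidized purine triphosphates, Prpsap2, which binds the PRPP synthetases (2.46 ± 0.83), and the adenylate kinase Ak6 (2.19 ± 0.41). Nudt1 and Prpsap2 were listed at 0 in control replicate 1 and stood at 8.53 and 4.48 FPKM in control replicate 2.

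Of 9 tested genes of pyrimidine salvage and breakdown, 1 was called higher and 2 lower in control against unstimulated, 3 and 1 in SMF against unstimulated and 3 and 0 in SMF against control. Beside these stood 12.3%, 22.4% and 12.5% of all genes called higher and 12.6%, 14.8% and 5.72% called lower. Uck2, the uridine-cytidine kinase, stood at 9.76 and 8.81 FPKM in the unstimulated libraries, 17.5 and 24.3 FPKM in the control libraries and 44.98 and 42.5 FPKM in the SMF libraries and was called higher in all 3. Nme7, a divergent member of the diphosphate kinase family, stood at 98.5 and 101 FPKM in the unstimulated libraries, 19.5 and 24.4 FPKM in the control libraries and 18.4 and 20.5 FPKM in the SMF libraries. It was called lower in control (-2.14 ± 0.29) and SMF cells (-2.30 ± 0.29), the direction opposite to Nme1 and Nme2, and its SMF against control value was -0.16 ± 0.29. Uckl1 was called lower in control against unstimulated (-2.75 ± 0.83), and Uck1 (2.76 ± 1.03) and Nme6 (2.30 ± 0.69) higher in SMF against control, all 3 being listed at 0 in control replicate 1. Nme6 was called higher in SMF against unstimulated as well, being listed at 0 in both unstimulated libraries.

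Of 8 tested entries in the list of ATF4, MYC and their partners, 4 were called higher in control against unstimulated, 6 in SMF against unstimulated and 0 in SMF against control. Among all genes tested 12.3%, 22.4% and 12.5% were, so 0 of 8 is near the background. Atf4 stood at 19.6 and 31.2 FPKM in the unstimulated libraries, 71.99 and 48 FPKM in the control libraries and 89.02 and 107 FPKM in the SMF libraries and was called higher in control (1.21 ± 0.36) and SMF cells (1.93 ± 0.36) than in unstimulated cells. Myc stood at 11.1 and 16.5 FPKM in the unstimulated libraries, 20.8 and 43.1 FPKM in the control libraries and 30.5 and 36.4 FPKM in the SMF libraries, the highest value being that of control replicate 2. It was called higher in control (1.09 ± 0.45) and SMF cells (1.24 ± 0.45), and its SMF against control value was 0.15 ± 0.45. Asns, asparagine synthetase, an ATF4 target, was listed at 0 in both unstimulated libraries and stood at 9.95 and 18.04 FPKM in the control and 12.7 and 42.6 FPKM in the SMF libraries, which overlapped. Trib3, a pseudokinase induced by ATF4, was likewise listed at 0 in unstimulated cells and stood at 3.55 and 3.93 FPKM in control and 2.26 and 1.42 FPKM in SMF cells, and Eif2ak4, the kinase GCN2, which senses amino acid shortage upstream of ATF4, was called higher in SMF against unstimulated (2.18 ± 0.83).

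Markers of cycling cells moved with the stimulated groups. All 10 were called higher in control and in SMF cells than in unstimulated cells, where 12.3% and 22.4% of all genes tested were. In SMF against control 3 of 10 were called higher, Mcm2, Pcna and Birc5, beside 12.5% of all genes. The summed level of the 10 markers was 93.1 and 101 FPKM in the unstimulated, 561 and 552 FPKM in the control and 1031 and 991 FPKM in the SMF libraries, with Pcna the most abundant. Mki67, a marker of cells outside the resting phase, stood at 10.5 and 7.64 FPKM in the unstimulated libraries, 49.3 and 60 FPKM in the control libraries and 73.8 and 86.3 FPKM in the SMF libraries. The 2 control sums were close, but single markers differed between these libraries in both directions, with Cdk1 at 64.8 and 20.5 FPKM, Top2a at 143 and 112 FPKM and Pcna at 71.2 and 107 FPKM. The part of cycling cells in the differences was not tested. Markers of CD8 T cells were also higher in SMF than in control libraries for 4 of 8 genes by the same rule, including Cd8a (2.01 ± 0.31) and Cd3d (1.40 ± 0.26).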

How the data were processed

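Per the submitters' notes, reads were trimmed with Trimmomatic 0.36, aligned to mm10 with HISAT2 and quantified by the authors with StringTie. Per the file headers, StringTie 1.3.5 used strand and only the transcripts of GENCODE M19. The deposited values are FPKM of transcripts, of 137767 transcripts in each file. They were summed over each of 54446 genes. A gene was tested where its mean reached 1 FPKM (14991 genes). One linear model of log2(FPKM + 1) over 3 groups, with 3 residual degrees of freedom and a variance trend, was fitted with limma 3.58.1 in R 4.3.3, and all adjusted p in the text come from it. Tables and promoter motifs were handled in Python 3.11.15. A second deposited table holds 3 columns of per-sample values whose names match no single sample, and was not used. The fit was first tested on simulated data.

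The 31 genes, the 5 lists of other pathway genes and the marker lists were chosen with earlier results of these data known. All 31 were described; statistics were given for Phgdh, Shmt2, Mthfd2, Ppat, Impdh2, Cad, Ctps, for both genes of each pair of isozymes and for the 5 called genes that differed most in each comparison. Of the other pathway genes, the 3 called genes that differed most in each list and comparison were named, with Tyms, Rrm1, Rrm2, Tk1, Atf4 and Myc. Of the genes this rule names, 1 is not reported here. Depth is given as aligned bases, since the files hold no counts, and no interval on counting error could be given. Alternatives changed the pseudocount, filter, scaling, transcript choice, variance model and libraries.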

Additional observations from a re-analysis of the deposited data

How the results depend on the processing

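Phgdh, Psat1, Psph and Mthfd1l were called higher in control against unstimulated under all 20 alternatives that kept the rule of a 2-fold change and an unadjusted p of 0.05, 15 genes in SMF against unstimulated under all 19 such alternatives, and Nme1 and Nme2 in SMF against control under all 19, but with an adjusted p under 0.05 as the call Psph, Nme1 and Nme2 were not called. The cause of the movements below was not tested. Values are log2 fold changes or medians of them, and counts are genes called. With an adjusted p under 0.05 in limma as the rule, 3 of the 30 genes tested were higher in control against unstimulated and 0 in SMF against control. With libraries shifted to one median, 7 genes were higher in SMF against control, other pathway genes were 10 higher and 4 lower there and 8 lower in SMF against unstimulated, and Mat2a was -0.0073 in SMF against unstimulated. The medians in SMF against unstimulated were then 2.39 for all tested members, 2.35 for folate and methyl and 1.47 for purine, and in SMF against control 0.86 for all, 0.21 for serine and 0.58 for folate and methyl. With one FPKM sum over multi-exon protein-coding genes, 7 genes were higher in SMF against control, and other pathway genes were 10 higher and 2 lower there and 9 lower in SMF against unstimulated. Under that sum the medians in SMF against unstimulated were 2.16 for all, 2.34 for serine, 2.11 for folate and methyl and 1.22 for purine, and in SMF against control 0.84, 0.18 and 0.56 for the first 3 and 1.80 for pyrimidine. Its reversed values were -0.033 for Shmt1, -0.023 for Aprt and -0.013 for Dhodh in control against unstimulated, and -0.26 for Mat2a, -0.14 for Prps2 and -0.12 for Impdh1 in SMF against unstimulated. With gene TPM, Shmt1 was -0.033, Aprt -0.030 and Dhodh -0.16 in control against unstimulated, and the serine median 0.69 in SMF against control. With the length trend removed, Mat2a was -0.18, Prps2 -0.090 and Impdh1 -0.053 in SMF against unstimulated, with medians of 2.24 for all, 2.20 for folate and methyl and 1.56 for purine and 9 other pathway genes lower. In SMF against control the medians were then 0.84 for all, 0.26 for serine and 0.49 for folate and methyl, and other pathway genes were 12 higher and 3 lower. With the most abundant transcript only, 9 members and 9 other pathway genes were higher in control against unstimulated, beside 10.7% of all genes. Of these 9 members 8 were among the main 14, and Impdh2 was gained. Shmt1 was -0.62, Mat2a 1.05 and Aprt -1.51 there. In SMF against unstimulated 1 member was then lower, Shmt1 was -0.76, Ppat -0.99 and Impdh1 -3.07, and medians were 2.77 for all, 3.70 for serine and 2.15 for purine. In SMF against control 1 member and 1 other pathway gene were lower, the serine median was 1.41, and Shmt1 was -0.14, Ppat -1.21, Impdh1 -2.13 and Ctps2 -0.10. With a pseudocount of 0.1, Dhodh was -0.87 in control against unstimulated, the median of all was 2.75 in SMF against unstimulated, and other pathway genes were 8 higher and 1 lower in SMF against control. With a pseudocount of 2 that median was 2.48. With 2 groups only, and with no variance trend, 1 other pathway gene was lower in SMF against control.

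Leaving out each library in turn moved the members called higher from 6 (without control replicate 2, with 11.1% of all genes called higher) to 14 (without control replicate 1, with 10.8%) in control against unstimulated and from 4 (without SMF replicate 2, with 6.43%) to 18 (without control replicate 2, with 15.2%) in SMF against control, and members called lower from 0 to 1 in control against unstimulated. Other pathway genes called higher ran from 13 to 20, from 21 to 34 and from 6 to 19 in control against unstimulated, SMF against unstimulated and SMF against control, and those lower in the last from 0 to 2. Without control replicate 1 the members called higher in control against unstimulated were not those of the main fit. Mthfd2, Prps1, Ctps and Nme1 were lost and Mthfd1, Adsl, Hprt and Aprt gained. Medians in control against unstimulated ran from 0.50 to 1.46 for all, 0.73 to 1.78 for folate and methyl, 0.16 to 1.26 for purine and -0.46 to 1.28 for pyrimidine. In SMF against unstimulated they ran from 2.28 to 2.67, 2.19 to 2.64, 1.62 to 1.99 and 2.90 to 3.60 in the same order, and in SMF against control from 0.82 to 1.54 for all, 0.41 to 0.64 for serine and 1.73 to 2.43 for pyrimidine. Single genes changed sign, with ranges in control against unstimulated of -0.31 to 0.52 for Shmt1, -0.034 to 1.78 for Mthfd1, -0.093 to 0.53 for Ppat, -1.94 to 0.078 for Impdh1, -0.39 to 1.33 for Gmps, -0.88 to 1.11 for Aprt, -0.46 to 1.28 for Cad, -1.08 to 1.25 for Dhodh and -1.05 to 2.08 for Umps. In SMF against unstimulated these were -0.11 to 0.60 for Mat2a and -0.34 to 0.14 for Ctps2, and in SMF against control -0.56 to 0.18 for Psph.

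Replicate numbers are shared between groups, and same-numbered libraries of control and unstimulated cells share a folder date. With a replicate block 14, 25 and 14 members were called higher in control against unstimulated, SMF against unstimulated and SMF against control, the last adding Shmt2 and Umps to the 12. Deviations from the group means of same-numbered libraries correlated at 0.0963, 0.0301 and 0.0206 across genes for control with unstimulated, SMF with unstimulated and SMF with control. With that date as a term 14 members were called higher in control against unstimulated. Depth limits genes listed at 0 in the shallowest libraries, and 2 libraries per group limit every SE.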
